A study of Caenorhabditis elegans with 2 samples.

Results

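Of the 5735 replicated peaks of CRH-2 on the ce11 build, 954 had their summit on an arm of chromosome II, III or V, and these arm peaks are described here. An arm is the first or last 25% of a chromosome's length, so the 3 chromosomes give 6 arms. The central 50% of the same chromosomes held 1804 peaks and serves as the comparison. Arms and centres each cover 24.99 Mb, and members were chosen by position alone, not by signal.

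The peaks come from chromatin immunoprecipitation and sequencing (ChIP-seq) of a tagged CRH-2 in whole second-stage (L2) larvae of the nematode Caenorhabditis elegans. All animals were of strain OP425 (unc-119(tm4063) III; wgIs425), a transgenic line with a GFP-FLAG tag at the C terminus of C27D6.4, which is crh-2, and sexes were mixed. The labels give 1 group of 2 biological replicates, with no treatment and no untagged or mutant group. Whole larvae pool all cell types, so a peak in few cells and a weak peak in many cannot be told apart, and no control library was analysed here.

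CRH-2 belongs to the CREB family of basic leucine zipper factors, which bind cyclic AMP response elements built around TGACG. The autosomes of C. elegans lack a single centromere and are divided by position instead. Their arms recombine more often, hold more repeats and more of the recently expanded gene families, and contact the nuclear periphery, whereas centres hold most of the conserved and broadly expressed genes.

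Below are the sequences under the 6 strongest arm peaks, which were picked for high signal and need not be typical of arm peaks. Each is the summit base with 50 bases to each side, read from the RefSeq copy of WBcel235 (the same assembly as ce11) on the plus strand. Capitals mark TGACG or longer CREB-type matches on either strand. By strength they are the promoter of tasp-1 at chrIII:10759202-10759302, the promoter of Y25C1A.8 at chrII:3077074-3077174, an intron of Y111B2A.12 at chrIII:12612600-12612700, the promoter of cox-5A at chrIII:12905148-12905248, the promoter of epc-1 at chrIII:12608766-12608866 and the promoter of rbc-2 at chrIII:2528757-2528857.
tasp-1: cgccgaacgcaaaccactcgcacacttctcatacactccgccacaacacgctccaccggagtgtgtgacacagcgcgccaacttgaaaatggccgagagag
Y25C1A.8: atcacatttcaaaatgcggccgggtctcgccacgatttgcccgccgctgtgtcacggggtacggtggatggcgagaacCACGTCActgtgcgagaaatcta
Y111B2A.12: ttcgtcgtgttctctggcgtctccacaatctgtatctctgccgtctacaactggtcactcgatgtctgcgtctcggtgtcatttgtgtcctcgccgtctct
cox-5A: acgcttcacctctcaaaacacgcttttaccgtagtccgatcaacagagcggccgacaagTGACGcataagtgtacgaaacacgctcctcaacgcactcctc
epc-1: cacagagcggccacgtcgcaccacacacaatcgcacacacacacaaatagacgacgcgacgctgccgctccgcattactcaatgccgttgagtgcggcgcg
rbc-2: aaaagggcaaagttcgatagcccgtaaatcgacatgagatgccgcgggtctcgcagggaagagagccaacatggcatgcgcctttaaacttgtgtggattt
Y25C1A.8 held CACGTCA, the reverse complement of TGACGTG, and cox-5A held TGACG, while none of the 7 motifs counted further on was in the other windows.

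Of the 6 strongest arm peaks, 5 lay in promoter windows and 1 in an intron. The strongest, with an authors' signal of 998 and rank 10 of 5735, lay 55 bp upstream of tasp-1, a threonine aspartase, on the right arm of III (peak at 10759084 to 10759403). Its summit was also in the window of K01G5.10. The relative signal of this peak was 9.72 in replicate 1 and 8.82 in replicate 2. A relative signal takes the strongest region of a replicate that overlaps the peak. The signal of that region is divided by the median of such signals over the 5735 replicated peaks. On the left arm of II, a peak of signal 987 and rank 13 lay 165 bp upstream of Y25C1A.8, with relative signals of 10.0075 in replicate 1 and 8.54 in replicate 2. The peak 293 bp upstream of cox-5A, a subunit of cytochrome c oxidase, had a signal of 739 and relative signals of 6.76 and 6.85 in replicates 1 and 2. All 3 stood far above these medians in both libraries. They were picked for a high pooled signal from the same 2 libraries, so this is no separate support.

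Next by signal came epc-1, an Enhancer of Polycomb homologue, at a relative signal of 6.90 ± 1.252 (SD, n = 2), and rbc-2, a rabconnectin, at 6.27 ± 0.178 (SD, n = 2). The epc-1 summit was also in the window of Y111B2A.12, and the rbc-2 summit in those of Y54F10AM.15 and ndua-8. A summit 159 bp upstream of drr-2, an eIF4H-like translation factor, also lay in the window of set-16, a histone H3 lysine 4 methyltransferase, at 5.84 ± 1.05 (SD, n = 2). The strongest promoter peak of the right arm of V belonged to Y39B6A.5 at 5.79 ± 0.309 (SD, n = 2), and that of the right arm of II to cmtr-1, an mRNA cap methyltransferase, at 4.84 ± 0.355 (SD, n = 2). That of the left arm of V lay between C39F7.5 and rab-1, the GTPase of transport out of the endoplasmic reticulum, at 4.16 ± 0.658 (SD, n = 2). Y75B8A.23 with tim-1, a timeless homologue, Y71H2AM.20 with the oxidase subunit gene cox-6B and nduc-2, vig-1, rab-18 with kbp-4 and the polarity gene par-2, K02E2.11, and the kinase gene cdk-5 with kel-3 filled the list of 15, with mean relative signals from 3.99 at cdk-5 to 4.73 at Y71H2AM.20. Where windows overlap, the target gene cannot be told from the summit.

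Of the arm peaks in no promoter window, the 5 strongest all lay on right arms. The first, at III 12612465 to 12612802 with a signal of 755, was in an intron of Y111B2A.12. It lay 3361 bp downstream of that gene's 5′ end, and its relative signal was 7.76 in replicate 1 and 6.47 in replicate 2. The others were a non-coding exon at V 19897649 to 19897909 (signal 648), intergenic sequence at II 12102410 to 12102693 (625), an intron at III 10989529 to 10989713, 1781 bp upstream of the collagen gene col-94 (490), and intergenic sequence at V 20778271 to 20778580 (483), whose nearest 5′ end, 1963 bp away, was that of hif-1, the hypoxia-inducible factor.

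Peaks were sparser on the arms than in the centres. There were 38.2 peaks per Mb on arms and 72.2 per Mb in centres, a rate ratio of 0.529 (95% interval 0.488 to 0.572, exact binomial test, two-sided, adjusted p = 6.12e-59 over 6 comparisons). Among the 5735 strongest regions of each replicate's own list, replicate 1 had 38.0 per Mb on arms and 71.9 in centres, and replicate 2 had 37.5 and 72.2. Their ratios averaged 0.524 ± 0.00636 (SD, n = 2), so the difference was far larger than the spread between the replicates. Neighbouring summits had a median gap of 12164 bp on arms and 6658 bp in centres. Peaks of 1 genome are not biological replicates, so all p-values here describe these lists.

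**Figure D1:**
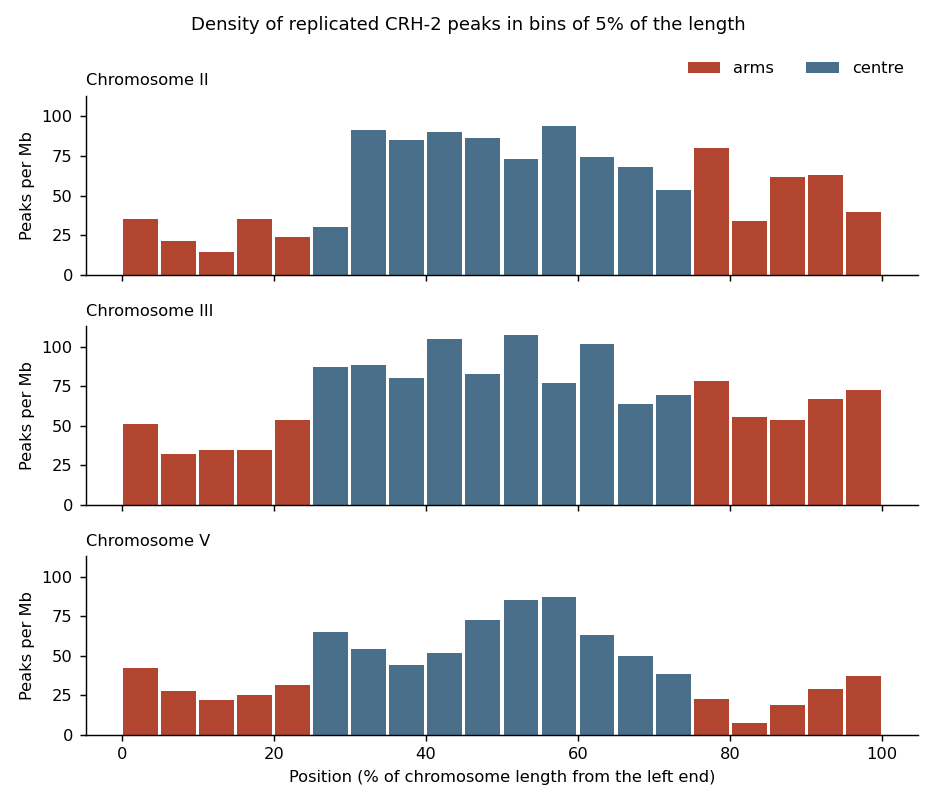
Replicated CRH-2 peaks per Mb (vertical axis) along chromosomes II, III and V in bins of 5% of the length from the left end (horizontal axis), with arm bins in red and centre bins in blue. Most arm bins are lower than the bins around mid-chromosome, and the right arms of II and III stand above their left arms.

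The density did not change at a single step. From the chromosome ends inward, over both ends of the 3 chromosomes and in bins of 5% of the length, it was 45.0, 38.2, 32.4, 29.8 and 45.4 peaks per Mb within the arms. It continued through 56.0, 67.2, 71.8 and 82.2 to 83.6 per Mb at mid-chromosome. The outermost bin was thus above the 3 bins that follow it, and the lowest density lay between 15% and 20% of the length from the end. Next to the 25% and 75% positions, the last arm peaks had signals from 76.9 to 156, and the first centre peaks from 71.1 to 540.

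The gap was smaller per gene than per Mb. Arms held 5104 protein-coding genes and centres 5979, which gave 18.7 peaks per 100 genes on arms and 30.2 in centres (rate ratio 0.619, 95% interval 0.572 to 0.670, exact binomial test, adjusted p = 9.13e-34). On III alone this ratio was 0.897 (0.785 to 1.02, unadjusted exact binomial p = 0.101). The repeat-masked share of the sequence was 42.8% on arms and 28.7% in centres. Over unmasked sequence only, the density ratio per Mb was 0.630; how much of the gap comes from reads that cannot be placed in repeats was not tested.

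A gene was called bound when a summit lay within 1000 bp before or 250 bp after any of its protein-coding 5′ ends. On the 3 chromosomes 2023 of 11083 genes were bound (18.3%). On arms 713 of 5104 genes were bound (13.97%, Wilson 95% interval 13.0 to 14.9), and in centres 1310 of 5979 (21.9%, 20.9 to 23.0). The odds ratio was 0.579 (Woolf 95% bounds 0.524 and 0.640; two-sided Fisher's exact test, adjusted p = 3.46e-27). Replicate 1 gave 13.6% on arms and 21.1% in centres, and replicate 2 gave 13.8% and 21.4%.

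The 6 arms were far from alike. On the left arm of II, 7.79% of genes were bound (7.48% with replicate 1 alone, 7.27% with replicate 2 alone), and on its right arm 21.6% (22.2% and 22.3%), against 22.0% in its centre. Chromosome III had 18.6% on the left arm, 30.0% on the right arm and 28.7% in the centre. Chromosome V had 11.7% on the left arm, 7.40% on the right arm and 17.8% in the centre. In both replicates the right arms of II and III were thus near their centres, and the other 4 arms were lower.

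These arm-by-arm tests were added after the values were seen. Against its own centre, the left arm of II had an odds ratio of 0.300 (adjusted p = 1.62e-22 over 6 comparisons, Fisher's exact test), the right arm of V 0.368 (adjusted p = 3.80e-18), the left arm of III 0.570 (adjusted p = 6.73e-06) and the left arm of V 0.609 (adjusted p = 1.81e-06). By the same exact test the right arm of II was at 0.977 (0.789 to 1.21, adjusted p = 0.870) and that of III at 1.07 (0.863 to 1.32, adjusted p = 0.657), intervals that still allow shifts of some size in either direction. Left over right, the odds ratio by Fisher's exact test was 0.307 on II (adjusted p = 4.38e-15 over 3 comparisons), 0.534 on III (adjusted p = 2.16e-05) and 1.65 on V (adjusted p = 0.000463). So the more often bound arm was the right one on II and III and the left one on V.

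**Figure D2:**
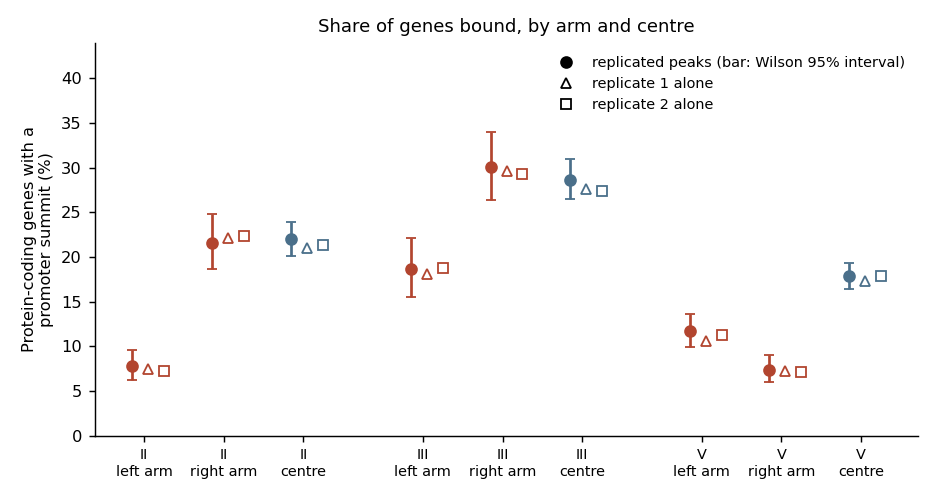
Share of protein-coding genes with a replicated summit in their promoter window (%, vertical axis) for the left arm, right arm and centre of II, III and V. Filled points with Wilson 95% bars are the replicated list, open triangles and squares each replicate alone; the right arms of II and III sit at the level of their centres, and the other 4 arms sit lower.

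The arms' deficit in peaks per Mb also differed between chromosomes. The ratio of arm to centre density was 0.545 on II, 0.618 on III and 0.432 on V. Set against each other by Fisher's exact test on the peak counts, III over V gave 1.43 (95% interval 1.18 to 1.73, adjusted p = 0.000525 over 4 comparisons added after the values were seen), II over V 1.26 (1.04 to 1.54, adjusted p = 0.0314) and II over III 0.882 (0.729 to 1.07, adjusted p = 0.209). The X chromosome, which is no autosome and lacks arms of this kind, had 0.904 (0.804 to 1.02) for its outer over its inner parts. II, III and V together differed from X by a factor of 0.585 (0.509 to 0.672, adjusted p = 2.19e-13, same exact test).

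No difference in promoter share between arm and centre peaks was detected. On arms 589 of 954 summits were in a promoter window (61.7%, 58.6 to 64.8), and in centres 1080 of 1804 (59.9%, 57.6 to 62.1; odds ratio 1.08, 0.921 to 1.27, Fisher's exact test, adjusted p = 0.416). Promoter windows cover 27.1% of arm sequence and 31.1% of centre sequence. Per Mb of promoter window there were 86.9 peaks on arms and 139.0 in centres (ratio 0.625, 0.564 to 0.692), and per Mb outside the windows 20.04 and 42.04 (ratio 0.477, 0.419 to 0.541). The deficit was therefore present both inside and outside promoter windows. The left arm of V had the highest promoter share of the 6 arms, 75.5%, and with V alone the odds ratio was 1.39 (1.03 to 1.87, unadjusted Fisher's exact p = 0.0371), against 0.887 (0.681 to 1.15) with III alone.

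Nor did the other classes of sequence differ detectably. Introns held 128 arm and 235 centre summits, and intergenic sequence 188 and 359. Coding exons held 6 and 22, non-coding exons 31 and 79, 5′ untranslated regions 4 and 10, and 3′ untranslated regions 8 and 19. None of the 7 classes passed Fisher's exact test after adjustment (lowest adjusted p = 0.578). Promoter summits lay a median of 159 bp upstream of the nearest 5′ end on arms and 176 bp upstream in centres, and 27.7% of those on arms and 28.7% of those in centres lay in windows of more than 1 gene.

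No difference in signal between arm and centre peaks was detected. The authors' signal ranged from 62.4 to 998 on arms with a median of 104.1 and quartiles of 79.3 and 157, and from 62.4 to 1625 in centres with a median of 100.9 and quartiles of 76.5 and 154. On arms 487 of 954 peaks (51.0%) were above the common median, in centres 892 of 1804 (49.4%; odds ratio 1.07, 0.911 to 1.25, Fisher's exact test, adjusted p = 0.447). The interval leaves room for a modest difference either way. Arms held 17 and centres 32 of the 100 strongest peaks of the whole list, and 99 arm peaks (10.4%) and 164 centre peaks (9.09%) were among the strongest 573.

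Agreement between the replicates was of similar size at arm and centre peaks. The 5735 strongest regions of replicate 1 covered 90.1% of the arm peaks and those of replicate 2 covered 86.1%, against 87.7% and 88.4% of the centre peaks. Both held for 737 arm peaks (77.3%) and 1384 centre peaks (76.7%). Among peaks with a value in each replicate, relative signals were within 2-fold of each other at 94.8% of 947 arm peaks and 94.3% of 1796 centre peaks. For the 947 arm peaks with a value in each replicate the rank correlation (Spearman's rho) was 0.763, and the log2 relative signals had a Pearson's r of 0.820. For 1796 centre peaks these were 0.720 and 0.795. These describe peaks of the same 2 libraries, which are not independent replicates. The replicated list was itself chosen for agreement between these libraries, so some agreement was built in on arms and in centres.

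**Figure D3:**
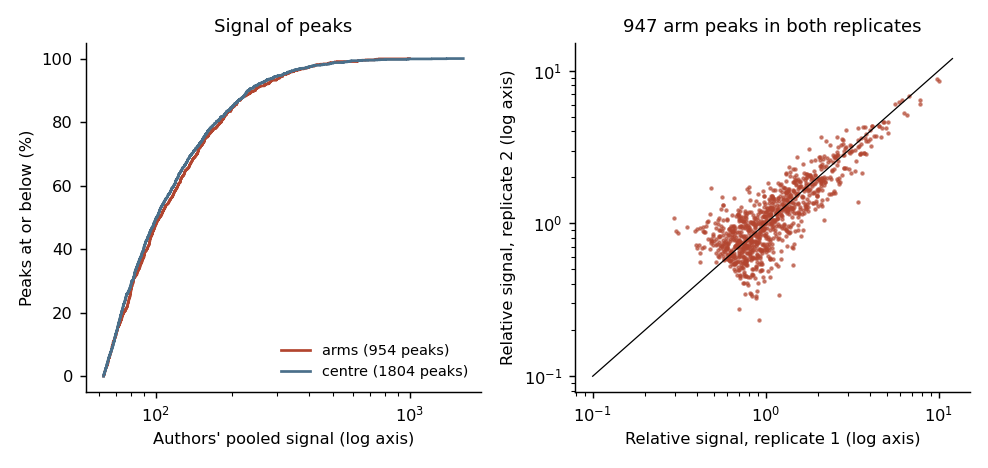
Left, cumulative share of peaks (%) against the authors' pooled signal (log axis) for 954 arm peaks (red) and 1804 centre peaks (blue), whose curves nearly coincide. Right, relative signal of 947 arm peaks in replicate 2 (vertical, log axis) against replicate 1 (horizontal, log axis) with the line of equality; 94.8% lie within 2-fold of it.

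Regions below the threshold were also fewer on arms. The pooled list of candidate regions, from which the replicated peaks are the strongest, held 14302 on the 3 chromosomes, of which 2758 (19.3%) were replicated peaks. Below the threshold there were 173.6 candidates per Mb on arms and 288.3 in centres (ratio 0.602, 0.580 to 0.625). On arms 954 of 5292 candidates became replicated peaks (18.0%), in centres 1804 of 9010 (20.02%; odds ratio 0.878, 0.805 to 0.958, Fisher's exact test, adjusted p = 0.00526). This small difference was not called with the 2867 strongest peaks only (0.930, unadjusted Fisher's exact p = 0.226), with II alone (0.947, p = 0.507) or with V alone (0.855, p = 0.0515).

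**Figure D4:**
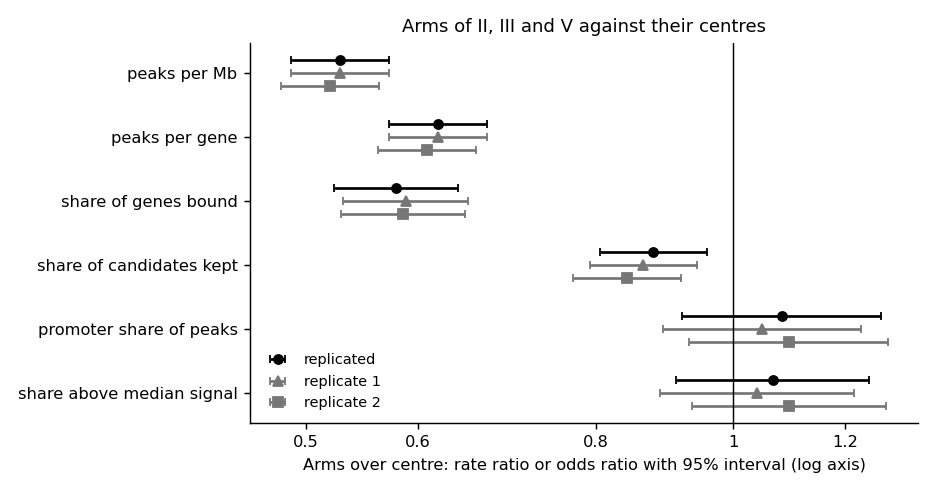
Arms over centres (log axis) for 6 comparisons: rate ratios of peaks per Mb and per gene, and odds ratios of the share of genes bound, of candidates kept, of promoter summits and of peaks above the median signal, with 95% intervals. Black is the replicated list, grey each replicate alone; the first 4 lie below 1 and the intervals of the last 2 include 1.

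Few genes of the large expanded families of C. elegans had a promoter summit. The 10 families listed, matched by gene symbol, together held 1312 arm genes, of which 66 were bound (5.03%), and 610 centre genes, of which 47 were bound (7.70%). The shares for all genes were 13.97% on arms and 21.9% in centres. Chemosensory receptors, 703 of the 1312 arm genes with 6 bound, weigh heavily on the pooled arm share. Nuclear hormone receptors (23.3%, and 22.5% with each replicate alone) were above the share of all arm genes. Glutathione S-transferases (15.4%, 4 of 26) were near that share, and the other listed families were below it. With replicate 2 alone, glutathione S-transferases had 11.5% (3 of 26), below the 13.8% of all arm genes. Cytochrome P450 genes, at 18.2% (6 of 33), were then above it. Lists were described by counts and not tested. Among genes outside these families 647 of 3792 were bound on arms (17.1%) and 1263 of 5369 in centres (23.5%), an odds ratio of 0.669, so the lower share on arms was also present without the families. Without them the left over right odds ratio was 0.322 on II, 0.573 on III and 1.55 on V.

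Chemosensory receptors, membrane-spanning proteins of sensory neurons, made up 703 of the arm genes, with 323 on the left and 252 on the right arm of V. Summits lay at 6 of the 703 on arms (0.853%; 5 with replicate 1, 7 with replicate 2) and at 8 of 387 in centres (2.07%). The signals at the 6 ran from 69.7 to 304. F-box proteins, substrate adaptors of ubiquitin ligases, had 16 of 236 bound on arms (6.78%) and 2 of 26 in centres (7.69%). The F-box summits with the highest signals were shared with other genes: fbxb-85 with hex-3 (relative signal 3.43 ± 0.143 (SD, n = 2)), fbxa-90 with efl-1, an E2F-like factor, and fbxa-108 with dgat-2.

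Apart from the nuclear hormone receptors, the other listed families had between 0 and 5 bound members on arms, and shares are to be read against 13.97% for all arm genes and 21.9% for all centre genes. C-type lectins, carbohydrate-binding proteins of which many serve in immunity, had 5 of 96 on arms, clec-150 and clec-126 among them, and 3 of 52 in centres. MATH domain genes had 1 of 59 on arms, math-10 (2 with replicate 1 alone), and 4 of 8 in centres. BTB domain genes had 1 of 16 (btb-9) and 0 of 1, and Skp1-related genes 0 of 6 and 0 of 2. Among detoxification enzymes, cytochrome P450 genes had 3 of 33 (cyp-33C6 and cyp-33C7 at a shared summit, and cyp-37B1) and 6 of 26. With replicate 2 alone the P450 counts were 6 of 33 and 4 of 26, so the direction turned. UDP-glucuronosyltransferases had 2 of 17 (ugt-64, ugt-12) and 6 of 29, and glutathione S-transferases 4 of 26 and 5 of 9. On arms the shares of the last 2 families, 11.8% and 15.4%, were near that of all genes. The strongest of these detoxification genes was gst-27 at 2.60 in replicate 1 and 2.40 in replicate 2.

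Nuclear hormone receptors, ligand-regulated transcription factors, had the highest bound share on arms of the 10 families. On arms 28 of 120 were bound (23.3%, Wilson 95% interval 16.7 to 31.7; 27 with each replicate alone), and in centres 13 of 70 (18.6%; 12 with each). All genes had 13.97% bound on arms and 21.9% in centres, so the receptors' share in centres was below that of all genes. The Wilson 95% interval of that receptor share, 11.2 to 29.2, included 21.9%. Of the 28 bound arm receptors, 22 lay on the left arm of V, where 22 of 74 receptor genes were bound (29.7%, 20.5 to 40.9). On the right arm of V 3 of 37 were bound. Of all genes, 11.7% were bound on the left arm of V and 7.40% on its right arm. The 28 genes had 28 different summits, and at 25 no other gene's window held the summit. Their signals were modest: from 66.7 to 188 with a median of 95.7, and 9 of 28 above the arm median. The strongest were nhr-50 (relative signal 1.38 in replicate 1 and 2.17 in replicate 2), nhr-256 (1.73 and 1.34) and nhr-79 (1.42 and 1.25). Many members of this family are close paralogues, and how reads were divided among near-identical sequences is not known here.

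**Figure D5:**
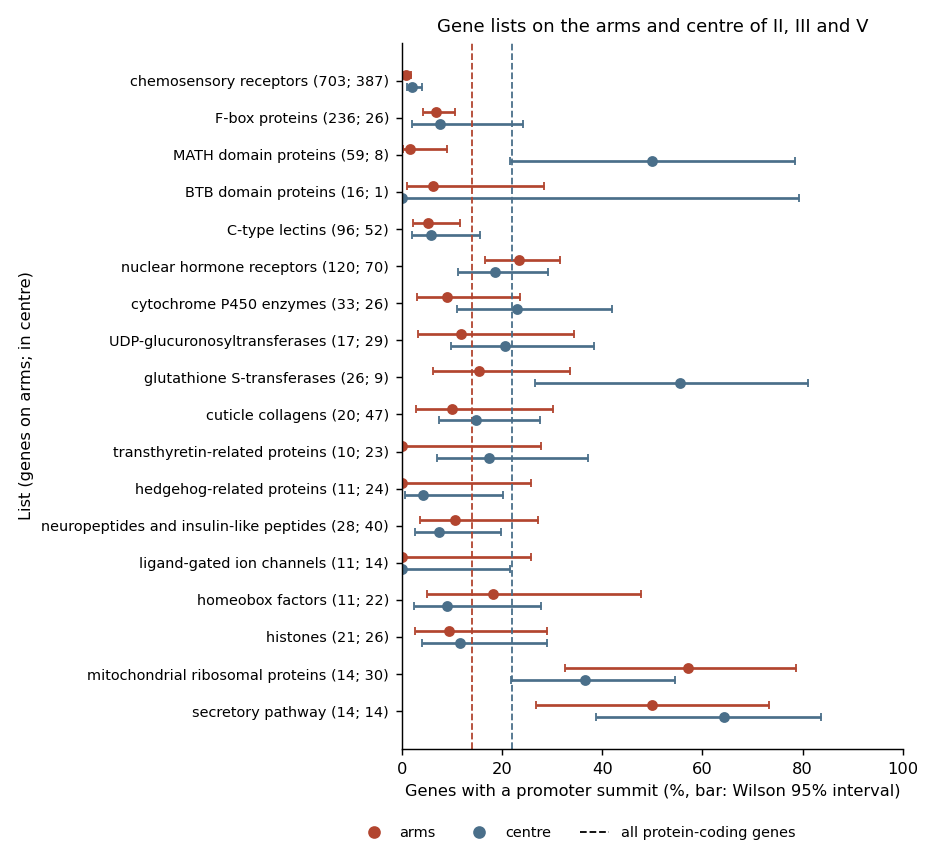
Share of genes with a replicated promoter summit (%, horizontal axis) on arms (red) and in centres (blue) for the gene lists with at least 10 arm genes, with Wilson 95% intervals; numbers of arm and centre genes stand beside each name. Dashed lines are all protein-coding genes (13.97% on arms, 21.9% in centres); chemosensory receptors lie lowest among the large lists, and mitochondrial ribosomal proteins and the secretory pathway lie above the lines.

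Genes of core machinery were few on arms, and more than 1 in 2 of them had a promoter summit. Shares here and below are to be read against 13.97% for all arm genes and 21.9% for all centre genes. The 10 lists of this kind, chosen with earlier results known, had 33 of 56 genes bound on arms (58.9%; 35 with replicate 1, 33 with replicate 2) and 100 of 159 in centres (62.9%; 99 and 96). When only the gene with the nearest 5′ end counted as bound, the arm share was 26.8%. The share of all arm genes under that rule is not given here, so 26.8% cannot be read against 13.97%. At 0 of the 4 bound cytosolic and 1 of the 8 bound mitochondrial ribosomal genes was the window the only one to hold the summit. V-ATPase and endoplasmic reticulum folding genes were only in the centres of these chromosomes, with 6 of 9 and 8 of 9 bound.

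Many of the 56 core genes on arms, bound or not, were on mitochondrial or protein-making lists. Mitochondrial ribosomal proteins had 8 of 14 bound on arms and 11 of 30 in centres, led by mrpl-28 at 2.81 in replicate 1 and 3.30 in replicate 2, with mrpl-12 and mrpl-45 next. Cytosolic ribosomal proteins had 4 of 6 on arms and 26 of 30 in centres, with rpl-43 at 3.77 ± 0.300 (SD, n = 2) in the window shared with Y48B6A.1, followed by rps-22 and rps-29. Oxidative phosphorylation had 3 of 6 and 8 of 13 (cox-5A, cox-6B and cox-10), translation factors 2 of 4 and 12 of 18 (eif-3.B, ife-3), and aminoacyl-tRNA synthetases 2 of 5 and 4 of 10 (aars-1, tars-1). The aars-1 summit shared its window with rga-1, and the tars-1 summit lay nearer to kel-1.

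Protein quality control and transport genes followed the same description. All 3 proteasome genes on arms (rpt-4, rpn-12 and rpt-6) were bound, and 14 of 17 in centres. The rpt-4 summit lay nearer to nfyc-1, and the rpn-12 summit was also in the window of rad-23. All 4 heat shock genes on arms had a summit, against 3 of 10 in centres. They were hsp-60 and hsp-6, both mitochondrial chaperones, at 3.58 ± 0.0531 (SD, n = 2) and 2.00 ± 0.103 (SD, n = 2), and the divergent pair hsp-16.2 and hsp-16.41 over 1 shared summit. The relative signal at the summit of that pair was 1.60 in replicate 1 and 0.831 in replicate 2. The hsp-60 and hsp-6 summits also lay in windows of Y22D7AL.10 and C37H5.5, whose 5′ ends were nearer. The secretory pathway had 7 of 14 on arms and 9 of 14 in centres, with the GTPase genes rab-1, rab-18 and rab-7 at mean relative signals of 4.16, 3.99 and 3.34, each in a shared window.

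The remaining lists, of structural, signalling and metabolic genes, had between 0 and 3 bound members on arms, with shares on both sides of the 13.97% of all arm genes. Cuticle collagens had 2 of 20 bound on arms (col-71, col-94) and 7 of 47 in centres, histones 2 of 21 (his-42, his-72) and 3 of 26, and neuropeptides 3 of 28 (nlp-29, an antimicrobial peptide gene, with nlp-31 and nlp-34 at 1 summit) and 3 of 40. The arm counts moved with the library: collagens had 2 with replicate 1 and 4 with replicate 2, histones 4 and 2, and neuropeptides 1 and 3. Homeobox factors had 2 of 11 and 2 of 22, ABC transporters 2 of 8 (haf-3, abcf-2) and 6 of 14, and short-chain dehydrogenases 2 of 6 (dhs-8 and dhs-11) and 3 of 12. The summits of haf-3, abcf-2 and dhs-11 lay in shared windows, nearer to the 5′ ends of F57A10.2, ant-1.1 and orc-1. Transthyretin-related genes had 0 of 10 and 4 of 23, hedgehog-related genes 0 of 11 and 1 of 24, and ligand-gated ion channels 0 of 11 and 0 of 14. With replicate 1 the homeobox count on arms was 1 and with replicate 2 it was 3, and short-chain dehydrogenases had 2 and 1 on arms and 1 and 4 in centres.

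Sequence motifs, 7 in number, were counted on both strands within 50 bp of the summits: the CREB-type core TGACG, its longer form TGACGTG, the palindrome TGACGTCA, the E-box CACGTG, the repeat GAGAGAGA, the GC box GGGCGG and the C/EBP-type TTGCGCAA. The core is contained in the longer form and the palindrome. TGACG was in 20.96% of arm and 23.4% of centre windows (odds ratio 0.869, adjusted p = 0.264 over 7 motifs, Fisher's exact test), against 10.1% and 10.6% in windows 300 bp to the side and 11.6% and 10.9% in windows centred 150 bp upstream of all 5′ ends. TGACGTG was in 4.30% of arm and 5.76% of centre windows (0.734, exact test, adjusted p = 0.249; side windows 0.472% and 0.665%, all promoters 0.952% and 0.978%), and TGACGTCA in 1.36% and 1.44% (side windows 0.629% and 0.499%, all promoters 1.05% and 0.380%). CACGTG was in 8.81% and 6.49% (1.39, exact test, adjusted p = 0.108; side windows 2.25% and 1.58%, all promoters 2.34% and 1.16%).

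Only GAGAGAGA passed the test between arms and centres. It was in 7.97% of arm and 5.21% of centre windows (odds ratio 1.57, 1.15 to 2.15, adjusted p = 0.0410, Fisher's exact test), with 0.943% and 0.887% in the side windows and 1.11% and 1.44% at all promoters. With the strongest regions of replicate 2 alone the odds ratio in the exact test was 1.38 (adjusted p = 0.251), with replicate 1 alone 1.83 (adjusted p = 0.00176), and with promoter peaks only 1.30 (adjusted p = 0.700). On II alone it was 0.886. GGGCGG was in 3.98% of arm and 3.38% of centre windows, and TTGCGCAA in 0.314% and 0.499%. GC content within 50 bp of the summits was 44.2% on arms and 42.4% in centres, and its part in these shares was not tested.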

How the data were processed

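Regions of ChIP-seq against tagged CRH-2 in 2 biological replicates, whose separate origin rests on a replicate number in the labels, were taken from deposited narrowPeak lists on ce11. The authors deposited 1 replicated list by the irreproducible discovery rate (IDR) and lists of 30000 candidate regions for the pool and each replicate. For the aligner and the caller, names and versions were not given in the sources used here. Signal values are those the authors deposited, used only to describe, rank and filter within a list. The −log10 q-value deposited for each region was not tested. The deposited summit offset, another value, gave summit positions. Of the 5735 replicated peaks 5732 are among the 5735 strongest pooled regions. Depth is unknown, and intervals cover counting error only. All sample columns were mapped, with 0 left out.

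Coordinates are 1-based on WBcel235 (ce11), with Ensembl release 115. Replicate checks of densities, shares and peaks covered used the 5735 strongest regions of each replicate. Relative signals, and the correlations and 2-fold shares made from them, used all 30000 candidate regions of each replicate. Overlap meant at least 1 bp. Densities were compared by exact binomial tests and shares by Fisher's exact test, two-sided, with Benjamini-Hochberg adjustment over 6 comparisons, 7 classes or 7 motifs and a threshold of 0.05. The 29 gene lists were matched by symbol. Named are the nearest genes of the 15 strongest arm promoter peaks and the strongest of each of the 6 arms, the 5 strongest arm peaks outside promoters and up to 3 bound members per list, or all where lists were short; chemosensory receptors are given as a group, and homeobox factors as counts. Members and lists were chosen with earlier results of these data known. Code was tested on simulated data. Python 3.11.15, numpy 2.4.6, scipy 1.17.1, pandas 2.3.3 and matplotlib 3.10.9 were used.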

Additional observations from a re-analysis of the deposited data

How the results depend on the processing

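Density per Mb stayed below 1 and past the threshold in all 11 alternatives (ratio of arms over centres 0.432 to 0.630), and so did the odds ratio of genes bound in all 14 (0.488 to 0.804). Density per gene lost its call with III alone (0.897). The share of candidates kept lost it with the 2867 strongest peaks only (0.930), II alone (0.947) and V alone (0.855). The promoter share, not called on II, III and V together, was 0.988 over all 5 autosomes, 0.887 with III alone and 1.39 with V alone, where it passed. The share above the median signal was 0.850 with V alone. The bound share of the arm families was 1.75% with the 2867 strongest and 10% with III alone, where 24.4% of all arm genes were bound. It was 6.78% with a window of 2000 and 500 bp. The bound share of core machinery was 44.6% with a window of 500 and 100 bp and 26.8% with the nearest gene only. Except for III alone, the share of all arm genes under these settings is not given, so these shares have no background beside them. The number of motifs passing was 0 with arms of 20% or 33%, with the 2867 strongest, with II or III alone and with promoter peaks only, and 0 and 1 with a replicate left out. Odds ratios of motifs and classes changed sides of 1 as follows, all uncalled in the main comparison except that of GAGAGAGA. TGACGTCA, 0.945 in the main comparison, was 1.10 with arms of 20%, 1.29 without replicate 1 (0.797 without replicate 2), 1.17 with the 2867 strongest, 1.19 over 5 autosomes, 1.16 with V, 1.35 with 100 bp to each side and 1.27 with promoter peaks. TTGCGCAA was 1.12 over 5 autosomes, 1.55 with V and 1.33 with 100 bp, TGACGTG 1.08 with III, and GAGAGAGA 0.886 with II. Introns were at 0.980 without replicate 1 (1.07 without replicate 2), 0.933 with II and 0.673 with V; intergenic sequence at 1.01 without replicate 1, 1.0015 without replicate 2, 1.10 over 5 autosomes and 1.05 with III; 5′ untranslated regions at 1.63 with arms of 33% and 1.23 with II; 3′ untranslated regions at 1.86 with V; and non-coding exons at 1.39 with II. The cause of these changes was not tested. No paired analysis was possible because the labels give 1 group only. Restricting density to unmasked sequence and genes to those with a gene-class symbol were alternatives chosen after seeing the data. Depth is unknown, so a gene with no summit cannot be called unbound at greater depth.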

Other observations

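Other values of the same lists fall outside the comparisons above. Genes with a gene-class symbol were bound in 16.4% of cases on arms (470 of 2858) and 26.2% in centres (875 of 3338), and genes known by a sequence name only in 10.8% (243 of 2246) and 16.5% (435 of 2641). Of the 66 bound genes of the expanded families on arms, 12 had every summit in a window shared with a gene outside those families, against 15 of 47 in centres. Of the arm summits, 198 of 954 (20.8%) lay on repeat-masked bases, and 308 of 1804 (17.1%) in centres.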
